A study of Mus musculus with 11 samples.

Results

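The genes described here are the ligands, receptors and regulators of the Wnt pathway, chosen by their mouse gene symbols: the Wnt, Frizzled (Fzd), Sfrp, Dkk, R-spondin (Rspo), Dishevelled (Dvl), Axin and Tcf7 families, the co-receptors Lrp5, Lrp6, Ror1 and Ror2, and Lef1, Ryk, Porcn, Wls, Apc, Gsk3a, Gsk3b, Znrf3, Rnf43, Nkd1, Nkd2 and Wif1. The rule matches 65 annotated mouse genes, and 41 of them have a row among the 14272 genes used here. RNA-seq libraries came from replicate cultures of 4 mouse cell lines. Melan-a is a spontaneously immortalized line of nonmalignant melanocytes, kept in medium with the phorbol ester PMA at 200 nM. The lines 4C (pre-malignant, not tumorigenic), 4C11- (melanoma, not metastatic) and 4C11+ (metastatic melanoma) descend from melan-a through repeated cycles of blocked adhesion and were grown without PMA, so the medium of melan-a cannot be told apart from that line. In the study, melan-a and 4C11+ are epithelial and 4C and 4C11- mesenchymal-like. The comparisons follow that order of lines and the contrast between both phenotypes. The 11 libraries used are replicates 1 to 3 of 4C, 4C11- and 4C11+ and replicates 2 and 3 of melan-a, whose replicate 1 was not analysed here.

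Wnt proteins are secreted lipid-modified ligands. In the canonical branch they bind a Frizzled receptor together with Lrp5 or Lrp6, which halts the destruction complex built on Axin and Apc and lets beta-catenin reach the TCF/LEF factors in the nucleus. Other branches act through Ror and Ryk receptors on cell polarity and calcium. In the melanocyte lineage the canonical branch helps to specify melanocytes from the neural crest, and the melanocyte regulator Mitf is among its target genes.

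Values are log2 CPM (counts per M reads), as the authors normalized them. Low values lie on discrete steps, each taken as 1 read, from which the depth was estimated. It was 3.50 and 5.82 M reads for the melan-a libraries, between 5.67 and 7.08 M for 4C, between 4.58 and 7.42 M for 4C11- and between 4.07 and 5.47 M for 4C11+. A gene with no library of a group above 3 reads gets no fitted fold change. Where all libraries of that group are at 0 reads, the fold is a lower bound computed with each value raised to the level of 3 reads, and with 1 or more reads it is the ratio to the pooled reads with a 95% counting interval, which covers counting error only. The steps did not follow the estimated depth in every library. The level of 3 reads was -0.25 log2 CPM in melan-a replicate 2 (3.50 M) and 0.15 in 4C11+ replicate 1 (4.19 M). Depths, bounds and counting intervals that rest on the steps are therefore approximate. By the methods, a row required 1 CPM or more in 4 libraries or more. In the values used here 136 genes, Wnt3 among them, reach 0 log2 CPM in fewer than 4 libraries, so the values do not show which genes that filter removed. The members without a row here are 10 of 19 ligands (Wnt1, Wnt2, Wnt3a, Wnt7a, Wnt8a, Wnt8b, Wnt9b, Wnt10a, Wnt10b and Wnt16), 7 of 9 secreted antagonists (Dkk1, Dkk2, Dkk4, Sfrp1, Sfrp2, Sfrp4 and Sfrp5), Rspo1 to Rspo4, Fzd6, Fzd10 and Ror2. Ror2, a receptor of Wnt5a, therefore has no value here.

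Markers of cell type differed between the lines together with the Wnt genes. Of 12 melanocyte markers, 11 have a row, and all 11 were lower in 4C than in melan-a and higher in 4C11+ than in 4C11- (limma, below). They summed to 1976 and 9216 CPM in the melan-a libraries and to between 11353 and 13639 CPM in those of 4C11+. In 4C the sum was between 3.76 and 8.43 CPM, and in 4C11- between 4.08 and 13.0 CPM. The most abundant marker was Sox10 or Tyrp1 in melan-a, Dct or Pmel in 4C and 4C11+, and Pmel or Mitf in 4C11-. In 4C and 4C11- from 2 to 4 of the 11 markers were at 0 reads. Tyr, the tyrosinase that defines pigment cells, was at -0.25 and 1.29 log2 CPM in melan-a, against 8.39 to 8.70 in 4C11+. Its call between 4C and melan-a ended with low values at the level of 3 reads (adjusted p = 0.0501), and that of Pmel ended without melan-a replicate 3 (adjusted p = 0.0998) or 4C replicate 2. Of 8 fibroblast markers, 4 have a row, and all 4 were higher in the mesenchymal-like lines. They summed to 206 and 19.6 CPM in the melan-a libraries and to between 25.8 and 45.0 CPM in those of 4C11+, where Pdgfrb was the most abundant. In 4C the sum was between 2307 and 2630 CPM and in 4C11- between 1968 and 2230 CPM, with Col1a1 the most abundant. In melan-a replicate 3 and 4C11+ replicate 1, 1 of the 4 was at 0 reads. The call of Pdgfrb between 4C11+ and 4C11- was lost in 9 of the 11 fits that leave out 1 library (adjusted p up to 0.127, without 4C11+ replicate 3). Among the other lists, Cdh5 was the endothelial marker with a row and reached 92.9 to 172 CPM in 4C11- against 0.616 to 16.1 in 4C and 0 reads in the 4C11+ libraries. Krt10, the keratinocyte marker with a row, stayed at or under 2.80 CPM in the 11 libraries, and the 3 leukocyte markers with a row summed to 7.64 to 96.8 CPM. These marker sums move with most of the Wnt differences below, and their part in them was not tested. In bulk RNA, fewer cells of a type and less RNA per cell cannot be told apart.

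Some libraries stood apart from their line. The melan-a libraries correlated across genes with r = 0.907, and the melan-a pair had a median standard deviation of 0.54 over the 41 members, against 0.31 in 4C, 0.40 in 4C11- and 0.33 in 4C11+. In melan-a replicate 2 Pdgfrb was at 6.90 log2 CPM and in replicate 3 at 0.89, and the leukocyte markers summed to 96.8 and 12.7 CPM. Among the members, Wnt5a, Tcf7, Dkk3 and Fzd9 differed most between these libraries. 4C11- replicate 1 correlated with replicates 2 and 3 of its line at 0.924 and 0.888, and genes with a long summed exon length were low in it. Its median deviation from the line mean was -0.42 over the 10% of genes with the longest exons and 0.30 over the 10% with the shortest. In 4C11- replicate 3 these medians were 0.33 and -0.24, in 4C replicate 1 -0.25 and 0.20, and in 4C11+ replicate 3 0.26 and -0.21. Apc, the longest member with 16.1 kb of exons, was at 3.96 in 4C11- replicate 1 against 6.74 and 7.55 in replicates 2 and 3. For part of the results that rest on these libraries, values without them are given as well.

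In the contrast of mesenchymal-like with epithelial lines, more Wnt members were higher than lower. The ligands Wnt6, Wnt4, Wnt7b and Wnt11, the antagonist Wif1 and the Dishevelled inhibitor Nkd1 were near the bottom of the scale in melan-a and 4C11+ and well expressed in both 4C and 4C11-. Axin2, Lef1, Ror1 and Tcf7 were higher in the mesenchymal-like lines as well, while Fzd4 was lower. Lef1 and Ror1 were low in 4C11+ alone and were not called between 4C and melan-a (adjusted p = 0.302 and 0.147). In limma (line means fitted over the 11 libraries together, Benjamini-Hochberg adjustment over all genes, called at an adjusted p below 0.05), 22 of the 41 members were called higher and 3 lower, against 14.3% and 15.3% of all genes. The median log2 difference of the members was 0.80, or 0.53 with low values at the level of 3 reads, against -0.09 and -0.11 over all genes. The filter for a row acted on the levels of the same lines, so these counts, and those of the other comparisons below, are a description of the list. Without melan-a replicate 2 there were 20 calls, with those of Dvl3, Fzd8, Rnf43, Wnt2b, Wnt9a and Lrp6 lost, and without melan-a replicate 3 or 4C11- replicate 1 there were 23. The calls of Dvl2, Dvl3, Fzd1, Rnf43, Wnt2b, Wnt9a, Lrp6 and Dkk3 were each lost in 5 to 8 of the 11 fits that leave out 1 library.

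**Figure D1:**
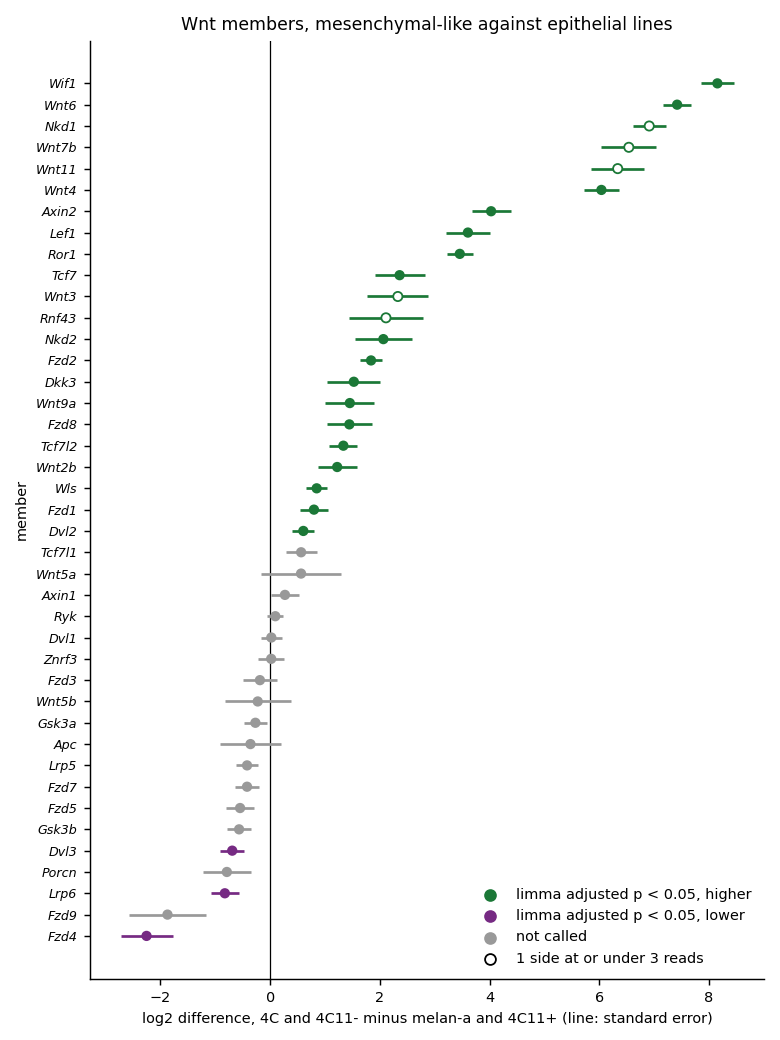
Log2 difference of each of the 41 members (mean of the 4C and 4C11- line means minus mean of the melan-a and 4C11+ line means), with its limma standard error as a line and color for the call. Open circles have all libraries of 1 side at or under 3 reads, so their position is no measure of size. Some filled points also rest on a line at the floor. Wnt6 had 0 reads in melan-a, Ror1 and Fzd8 had 0 reads in 4C11+, and Lef1 and Wif1 had 1 read in all there. The positions of these 5 are no measure of size either. Wif1 (8.15) and Wnt6 (7.42) lie at the top and Fzd4 (-2.25) at the bottom.

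The promoters of 4 members that moved together, low in both epithelial lines and high in both mesenchymal-like ones, are shown for their sequence, chosen after their values and matches were seen. They are the bases before the RefSeq transcript start (GRCm38.p6, plus strand) that lie in no annotated exon, with capitals for CAAAG (read on both strands, the core of the TCF/LEF site) and for CANNTG (the E-box, its own reverse complement). The Wnt6 stretch lies at chr1:74771642-74771891, the Wnt11 stretch at chr7:98834862-98835111, the Nkd1 stretch at chr8:88527383-88527632 and the Wif1 stretch, which ends 45 bases before the start where an annotated exon begins, at chr10:121033754-121033959. The Nkd1 stretch precedes a RefSeq start inside the gene, whose annotated start in GENCODE lies upstream at chr8:88521354.
Wnt6: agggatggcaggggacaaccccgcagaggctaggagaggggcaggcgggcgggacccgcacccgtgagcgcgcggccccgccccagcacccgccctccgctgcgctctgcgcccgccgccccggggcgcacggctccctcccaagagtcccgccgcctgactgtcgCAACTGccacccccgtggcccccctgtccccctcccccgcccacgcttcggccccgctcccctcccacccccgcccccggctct
Wnt11: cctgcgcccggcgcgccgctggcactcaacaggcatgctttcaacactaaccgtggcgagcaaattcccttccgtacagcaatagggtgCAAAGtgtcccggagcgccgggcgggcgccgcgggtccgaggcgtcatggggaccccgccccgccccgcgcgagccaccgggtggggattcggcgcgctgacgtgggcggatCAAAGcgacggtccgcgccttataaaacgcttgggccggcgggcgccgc
Nkd1: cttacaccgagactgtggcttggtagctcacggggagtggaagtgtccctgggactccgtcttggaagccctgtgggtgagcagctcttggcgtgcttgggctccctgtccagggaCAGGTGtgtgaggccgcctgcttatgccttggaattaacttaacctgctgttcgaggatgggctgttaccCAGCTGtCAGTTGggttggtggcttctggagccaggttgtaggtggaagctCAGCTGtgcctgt
Wif1: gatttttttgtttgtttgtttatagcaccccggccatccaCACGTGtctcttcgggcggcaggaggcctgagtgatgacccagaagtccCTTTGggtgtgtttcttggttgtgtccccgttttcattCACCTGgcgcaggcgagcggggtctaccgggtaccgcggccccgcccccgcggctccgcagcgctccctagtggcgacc

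The Wnt11 stretch holds 2 CAAAG matches and no E-box, the Wnt6 stretch 1 E-box, the Nkd1 stretch 4 E-boxes and the Wif1 stretch 1 CAAAG match and 2 E-boxes. Wnt11 has a later RefSeq start as well, and the 250 bases before that one hold 0 CAAAG matches and 1 E-box. Among the 250 bases before the start of 32851 promoters in the RefSeq table, 48.6% hold CAAAG and 66.2% hold CANNTG. The M-box core CATGTG on both strands, a special case of the E-box, is in 12.3% of them and in none of the 4 stretches. Of the 41 members, 29 have 38 promoters in the table, and 19 of these hold CAAAG, 22 CANNTG and 1 (Ryk) CATGTG. The 250 bases before Axin2 hold none of these letters. The matches describe these letters only.

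Among the ligands, Wnt6 gave the largest amount per exon length in all libraries of 4C and 4C11-. Wnt6 was at 0 reads in both melan-a libraries, at 6.71, 6.69 and 6.53 log2 CPM in 4C, at 6.53, 6.34 and 5.61 in 4C11- and at 1.04, 0.44 and 1.04 in 4C11+. The mesenchymal-like libraries lay far above all epithelial ones, and 4C11+ was low but above melan-a in each library. From melan-a to 4C the rise was at least 131-fold (limma, adjusted p = 6.01e-08), from 4C11- to 4C11+ the log2 difference was -5.33 (SE 0.34, adjusted p = 5.74e-07), and 4C11+ was at least 2.35-fold above melan-a (adjusted p = 8.24e-05). An antisense gene, Gm29539, overlaps Wnt6 and has a row too. Genes on the other strand with a row also overlap Wnt5b, Dvl1, Dvl2, Dvl3, Gsk3a and Apc, and the strand setting of the authors' counting is not given in the sources used here.

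Wnt4, a ligand known from kidney and gonad development, was likewise high in the mesenchymal-like and low in the epithelial lines. It was at 0.06 and -0.70 log2 CPM in melan-a, 6.36, 5.37 and 5.79 in 4C, 6.36, 5.53 and 6.25 in 4C11- and -0.24, 0.85 and -0.24 in 4C11+. No mesenchymal-like library overlapped an epithelial one, and 4C and 4C11- shared their range. Melan-a and 4C11+ overlapped, and unlike Wnt6, Wnt4 was not called between them (log2 difference 0.44, SE 0.48, limma adjusted p = 0.566). Wnt4 was higher in 4C than in melan-a by a log2 difference of 6.16 (SE 0.48, limma adjusted p = 3.90e-06) and lower in 4C11+ than in 4C11- by -5.92 (SE 0.43, adjusted p = 1.34e-06).

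Wnt7b was at 0 reads in both melan-a libraries, at 5.42, 5.77 and 3.69 log2 CPM in 4C, at 3.93, 2.57 and 3.66 in 4C11- and at -2.44, -2.44 and -0.70 in 4C11+, which is 2 reads in all. Wnt11, known for cell movement in gastrulation, was at -1.90 and -2.58 in melan-a, 4.83, 4.96 and 4.87 in 4C, 5.59, 3.73 and 3.46 in 4C11- and -2.44, -0.24 and -1.16 in 4C11+. Both ligands were silent or nearly so in the epithelial lines and varied more among the 4C11- libraries than Wnt6 did. Wnt7b was at least 41.0-fold higher in 4C than in melan-a (limma, adjusted p = 2.05e-05), and Wnt11 was 276-fold higher (counting interval 49.5 to 10902, adjusted p = 3.19e-05). Going from 4C11- to 4C11+, Wnt7b fell 71.8-fold (19.9 to 593, limma adjusted p = 0.000127) and Wnt11 fell 87.8-fold (30.1 to 426, limma adjusted p = 6.20e-05). In 4C11- replicate 1 Wnt11 had 202 reads, against 97 and 70 in replicates 2 and 3, so its fold is smaller without that library.

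**Figure D2:**
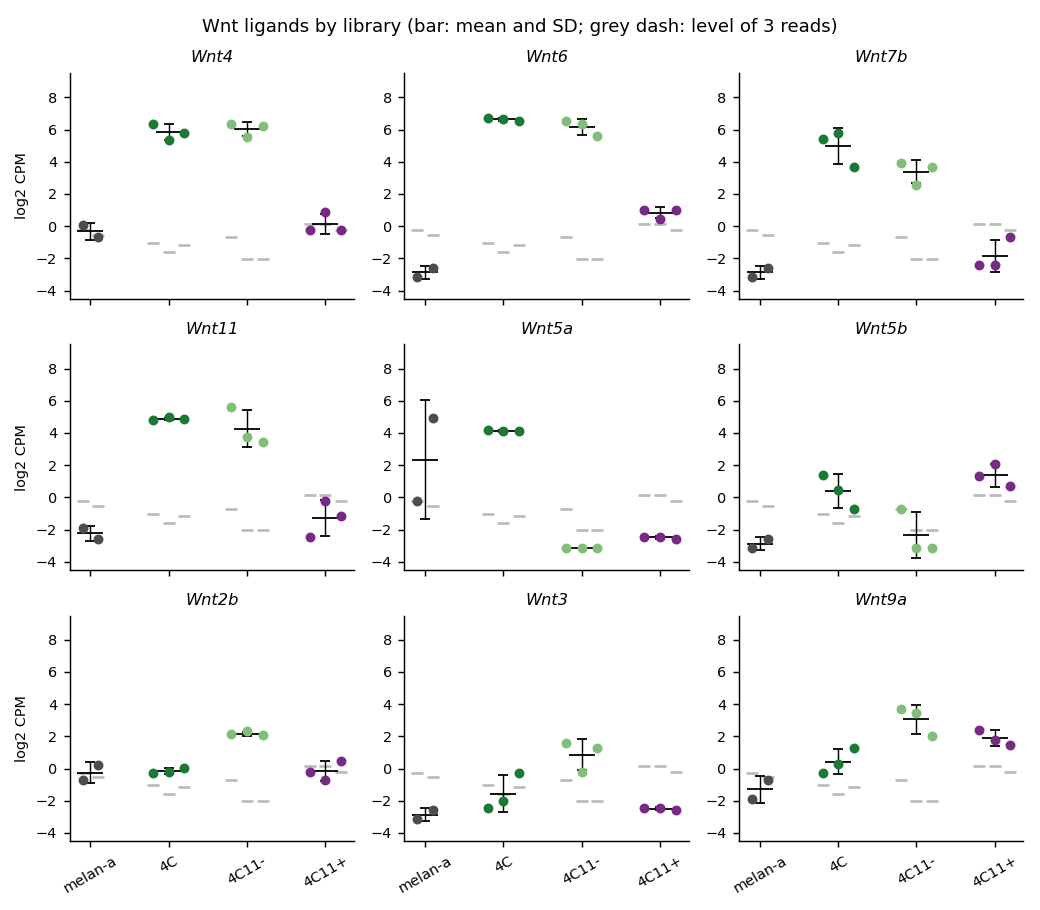
Log2 CPM of the 9 ligands in each library (points), with mean and standard deviation per line (bars) and each library's level of 3 reads (grey dashes). Wnt4, Wnt6, Wnt7b and Wnt11 are high in 4C and 4C11- only, while Wnt5a is high in 4C and melan-a replicate 3.

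Wnt5a, the prototype ligand of the non-canonical branches and one linked to invasion in melanoma, behaved differently. It was at -0.25 and 4.95 log2 CPM in melan-a, 4.21, 4.10 and 4.10 in 4C, -3.15 in each 4C11- library and -2.44, -2.44 and -2.58 in 4C11+. The 4C libraries were almost identical, both tumorigenic lines had 2 reads or fewer in all, and the melan-a libraries lay on opposite sides. Wnt5a fell 164-fold from 4C to 4C11- (counting interval 45.5 to 1356, limma adjusted p = 0.00282). It was at least 5.01-fold lower in 4C11+ than in melan-a (adjusted p = 0.0131), a bound that rests on the 203 reads of melan-a replicate 3, since replicate 2 had 3 reads. Without replicate 3 neither side is above 3 reads and no size can be given, and the call ended with low values at the level of 3 reads (adjusted p = 0.181). Between 4C and melan-a it was not called (log2 difference 1.79, SE 1.10, adjusted p = 0.335), and between phenotypes it was not called either (0.56, SE 0.74, adjusted p = 0.614). Without melan-a replicate 3 it was called higher in 4C (4.39, adjusted p = 0.00129) and in the mesenchymal-like lines (1.86, adjusted p = 0.00570), with 3 reads left in melan-a, so these values are no measure of size.

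The related ligand Wnt5b differed between the tumorigenic lines. It was at 0 reads in melan-a, at 1.40, 0.44 and -0.70 log2 CPM in 4C, at -0.70, -3.15 and -3.15 in 4C11- and at 1.33, 2.09 and 0.69 in 4C11+. All values were low, and those of 4C11+ lay above all 4C11- and melan-a libraries. Wnt5b was 9.65-fold higher in 4C11+ than in 4C11- (counting interval 4.14 to 29.7, limma adjusted p = 0.00482) and at least 3.39-fold higher than in melan-a (adjusted p = 0.00941), and the bound between 4C and melan-a was 1.71-fold (adjusted p = 0.0310). The call against melan-a in 4C11+ was lost without melan-a replicate 2 (adjusted p = 0.0630), and that in 4C was lost in 5 of the 11 fits without 1 library (adjusted p up to 0.132, without melan-a replicate 2). Both also ended with low values at the level of 3 reads (adjusted p = 0.105 and 0.520). Fbxl14, a protein-coding gene on the other strand, overlaps Wnt5b.

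The remaining ligands, Wnt2b, Wnt9a and Wnt3, had their highest library in 4C11-. Wnt2b was at -0.72 and 0.22 log2 CPM in melan-a, -0.25, -0.21 and 0.06 in 4C, 2.12, 2.32 and 2.09 in 4C11- and -0.24, -0.70 and 0.48 in 4C11+. Wnt9a was at -1.90 and -0.70 in melan-a, -0.25, 0.26 and 1.30 in 4C, 3.68, 3.44 and 2.03 in 4C11- and 2.42, 1.78 and 1.44 in 4C11+. Wnt3, a canonical ligand, was at 0 reads in melan-a and 4C11+, at -2.44, -2.01 and -0.25 in 4C and at 1.57, -0.24 and 1.26 in 4C11-. The 4C11- libraries lay above all others for Wnt2b, overlapped those of 4C11+ for Wnt9a, and for Wnt3 the lowest 4C11- library lay beside the highest of 4C. Wnt2b rose from 4C to 4C11- by a log2 difference of 2.31 (SE 0.48, limma adjusted p = 0.0354) and fell to 4C11+ by -2.32 (SE 0.48, adjusted p = 0.00339), and the rise was lost in 7 of 11 fits without 1 library (adjusted p up to 0.148, without 4C replicate 2). Between phenotypes Wnt2b was higher in the mesenchymal-like lines by 1.22 (SE 0.36, adjusted p = 0.0233) and Wnt9a by 1.45 (SE 0.45, adjusted p = 0.0297), with overlapping libraries, and these calls were lost in 5 and 7 of the 11 fits (adjusted p up to 0.0818 and 0.107, both without melan-a replicate 2). That of Wnt9a also ended with low values at the level of 3 reads (adjusted p = 0.0849) and with the replicate block (0.0519).

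Wnt9a was 11.5-fold higher in 4C11+ than in melan-a (counting interval 3.92 to 55.6, adjusted p = 0.00892), which was lost without melan-a replicate 2 (adjusted p = 0.0779). Wnt3 was called lower in 4C11+ than in 4C11- with a bound of 1.79-fold (adjusted p = 0.00532), and called higher in the mesenchymal-like than in the epithelial lines with a bound of 1.10-fold (adjusted p = 0.00802), and both calls ended with low values at the level of 3 reads (adjusted p = 0.255 and 0.829). The size of the Wnt3 difference is thus poorly bounded at this depth.

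Set per kb of exon, the 9 ligands together gave 0.647 and 4.56 CPM per kb in the melan-a libraries and between 3.13 and 4.04 in those of 4C11+. In 4C they gave between 68.7 and 86.7 CPM per kb and in 4C11- between 48.8 and 82.8. Wnt6 made up 55.0% to 61.3% of that sum in 4C and 45.7% to 64.7% in 4C11-, and Wnt4 12.5% to 22.5% and 19.2% to 37.2%. In melan-a replicate 3, Wnt5a made up 86.6%, and in 4C11+ the leading ligand was Wnt9a, Wnt5b or Wnt6, depending on the library. The leading ligand thus differed among the epithelial libraries, while Wnt6 led in every mesenchymal-like one.

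**Figure D3:**
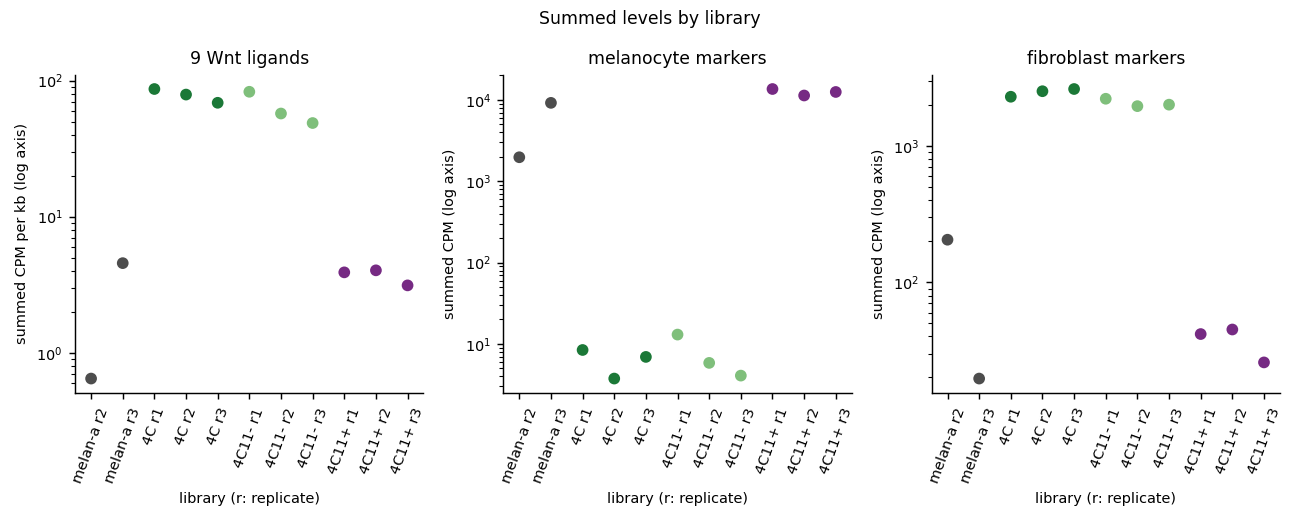
Summed level of the 9 ligands (CPM per kb of exon), of the 11 melanocyte markers and of the 4 fibroblast markers (CPM) in each library, on log axes. Ligand and fibroblast sums are high where the melanocyte sum is low, in 4C and 4C11-, and the melan-a libraries lie apart in all 3 panels.

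Ligand secretion needs the acyltransferase Porcn, which attaches the lipid, and the carrier Wls, which takes the ligand to the cell surface. Wls was abundant in all libraries, from 7.50 to 9.21 log2 CPM, and Porcn was low, from 0.48 to 4.08. Wls was higher in 4C than in melan-a (log2 difference 1.15, SE 0.28, limma adjusted p = 0.0162) and in mesenchymal-like than in epithelial lines (0.85, SE 0.19, adjusted p = 0.00520). The call in 4C was lost without melan-a replicate 3 (adjusted p = 0.0796) or 4C replicate 2 or 3, and Porcn was called in none of the 5 comparisons.

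Of the secreted antagonists, Wif1, which binds Wnt ligands outside the cell, had the largest fitted difference between phenotypes of the members with reads on both sides. Wif1 was at 0.06 and -0.70 log2 CPM in melan-a, 6.50, 6.42 and 6.86 in 4C, 7.51, 7.17 and 7.45 in 4C11- and -2.44, -2.44 and -1.16 in 4C11+, where 1 read was seen in all. The 4C11- libraries lay above those of 4C, and the epithelial libraries lay near the floor. Wif1 was higher in 4C than in melan-a by a log2 difference of 6.91 (SE 0.44, limma adjusted p = 9.33e-07) and 2285-fold lower in 4C11+ than in 4C11- (counting interval 410 to 90263, adjusted p = 3.30e-08). Its call between 4C11+ and melan-a (11-fold lower, counting interval 1.98 to 435, adjusted p = 0.0244) rests on these few reads, and with low values at the level of 3 reads the log2 difference was positive, 0.26 with an adjusted p of 0.647. The call was also lost without melan-a replicate 2 (adjusted p = 0.167) and without 4C11+ replicate 1 or 2. Wif1 was thus abundant in the lines in which Wnt4, Wnt6, Wnt7b and Wnt11 were.

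Dkk3, the other antagonist with a row and a divergent member of its family, ranged from 4.94 to 8.65 log2 CPM. It was called higher in the mesenchymal-like lines (log2 difference 1.52, SE 0.48, limma adjusted p = 0.0325). In melan-a it was at 8.20 and 4.94, and the call was lost in 7 of the 11 fits without 1 library (adjusted p up to 0.0961, without melan-a replicate 3, where the difference was 0.71). Without melan-a replicate 2, Dkk3 was also called between 4C and melan-a (log2 difference 3.10, adjusted p = 0.00108).

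The 8 Frizzled receptors with a row had reads in every library, apart from Fzd8 in 4C11+. They summed to 74.4 and 57.9 CPM per kb of exon in the melan-a libraries, to between 62.4 and 87.7 in 4C, to between 57.2 and 72.4 in 4C11- and to between 40.1 and 45.0 in 4C11+. Fzd7 contributed most in melan-a and 4C11+, and Fzd2 most in 4C and 4C11-. Of the 8 receptors with a row, 3 were called higher and 1 lower in the mesenchymal-like lines, or 37.5% and 12.5%, against 14.3% and 15.3% of all genes.

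Fzd2 was at 5.66 and 4.78 log2 CPM in melan-a, 7.13, 6.85 and 6.55 in 4C, 6.80, 6.79 and 6.60 in 4C11- and 4.75, 4.78 and 4.52 in 4C11+. Fzd4, also the receptor of the ligand Norrin, was at 3.83 and 5.09 in melan-a, 2.58, 1.15 and -0.25 in 4C, 2.88, 2.35 and 3.03 in 4C11- and 4.00, 4.48 and 3.40 in 4C11+. Every mesenchymal-like library was above every epithelial one for Fzd2 and below every epithelial one for Fzd4. Fzd2 was higher in the mesenchymal-like lines by a log2 difference of 1.84 (SE 0.20, limma adjusted p = 2.33e-05), and Fzd4 was lower by -2.25 (SE 0.47, adjusted p = 0.00364). Between 4C and melan-a the Fzd4 difference was -3.30 (SE 0.71, adjusted p = 0.00785), and the call was lost without melan-a replicate 3 (adjusted p = 0.0725).

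Fzd8 was at 1.87 and 2.29 log2 CPM in melan-a, 2.17, 1.21 and 0.63 in 4C, 1.83, 0.44 and 1.16 in 4C11- and at 0 reads in 4C11+. It was undetected in 4C11+ alone, at least 2.17-fold below 4C11- (limma, adjusted p = 0.000384) and at least 4.16-fold below melan-a (adjusted p = 0.000502). The call against 4C11- ended with low values at the level of 3 reads (adjusted p = 0.103), as did that between phenotypes (log2 difference 1.44, SE 0.41, adjusted p = 0.0188, then 0.742), which was also lost without melan-a replicate 2 (adjusted p = 0.0590).

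Fzd7 was at 7.16 and 6.52 in melan-a, 6.82, 6.53 and 5.88 in 4C, 6.41, 5.80 and 5.65 in 4C11- and 6.33, 6.33 and 6.45 in 4C11+. Fzd7 passed the threshold in none of the 5 comparisons, its fitted log2 differences lying between -0.48 and 0.41. Of the others, Fzd1 (4.46 to 6.21) was called higher in the mesenchymal-like lines, Fzd5 (3.07 to 5.68) was called lower in 4C and 4C11+ than in melan-a, and Fzd3 (4.21 to 5.92) and Fzd9 (-2.01 to 4.46) were not called. Without melan-a replicate 2, Fzd9 was called lower in 4C than in melan-a (log2 difference -4.45, adjusted p = 0.0296) and lower in the mesenchymal-like lines (-2.58, adjusted p = 0.0207). The Fzd5 calls were lost without melan-a replicate 2 (adjusted p = 0.0969 and 0.0964), and that of Fzd1 in 6 of the 11 fits (adjusted p up to 0.139, without melan-a replicate 3).

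The co-receptor that changed most was Ror1, a receptor kinase of the non-canonical branches. It was at 3.28 and 3.06 log2 CPM in melan-a, 4.12, 3.92 and 3.99 in 4C, 3.57, 3.59 and 3.58 in 4C11- and at 0 reads in all 4C11+ libraries. Ror1 was thus at a similar level in the other lines and undetected in the metastatic one, at least 11.8-fold below 4C11- (limma, adjusted p = 1.24e-07) and at least 8.84-fold below melan-a (adjusted p = 1.67e-06). The canonical co-receptors Lrp5 (5.61 to 7.53) and Lrp6 (5.91 to 8.10) and the receptor Ryk (6.66 to 7.66) were expressed throughout. Lrp5 was lower in 4C than in melan-a by -1.72 (SE 0.29, adjusted p = 0.00176) and lower in 4C11+ than in melan-a by -1.49 (SE 0.29, adjusted p = 0.00597), and the latter call was lost without melan-a replicate 2 (adjusted p = 0.0514). It was also lower in 4C11+ than in 4C11- by -0.88 (SE 0.26, adjusted p = 0.0243), a call lost in 4 of the 11 fits without 1 library (adjusted p up to 0.0719, without 4C11+ replicate 1), with the libraries of these lines alone (0.0531) and with the exon-length trend of each library removed (0.0823). The Lrp5 difference was -0.88 with these lines alone and -0.78 with the trend removed. Ryk was higher in 4C11+ than in melan-a by 0.74 (SE 0.21, limma adjusted p = 0.0350). This call was lost in 5 of 11 fits, among them that without melan-a replicate 2 (log2 difference 0.59), and with the replicate block (0.0608). Lrp6 was higher in 4C11+ than in 4C11- by 0.99 (SE 0.34, adjusted p = 0.0428), and the call was lost in 8 of 11 fits (adjusted p up to 0.122, without 4C11+ replicate 3), among them that without 4C11- replicate 1, where Lrp6 was at 5.91 against 7.15 and 7.42 in the line's other libraries (log2 difference 0.54, adjusted p = 0.0860).

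Rnf43 and Znrf3 are ubiquitin ligases that remove Frizzled receptors from the membrane, and R-spondins, none of which has a row here, block them. Rnf43 was at 0 reads in melan-a, at 2.13, 1.15 and 2.72 log2 CPM in 4C, at 0.06, -3.15 and -3.15 in 4C11- and at -0.70, -2.44 and -1.16 in 4C11+. It was above 3 reads in 4C and in 4C11- replicate 1 alone. Rnf43 was at least 5.26-fold higher in 4C than in melan-a (limma, adjusted p = 0.00656) and lower in 4C11- than in 4C by -4.08 (SE 0.90, adjusted p = 0.0482), a call lost in 8 of 11 fits without 1 library (adjusted p up to 0.197, without 4C replicate 3). Between phenotypes it was 11.2-fold higher in the mesenchymal-like lines (counting interval 3.10 to 92.6, adjusted p = 0.0352), which was lost in 6 of 11 fits (adjusted p up to 0.0910, without melan-a replicate 2) and with low values at the level of 3 reads (adjusted p = 0.416). Znrf3 ranged from 3.73 to 5.34 and was not called.

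**Figure D4:**
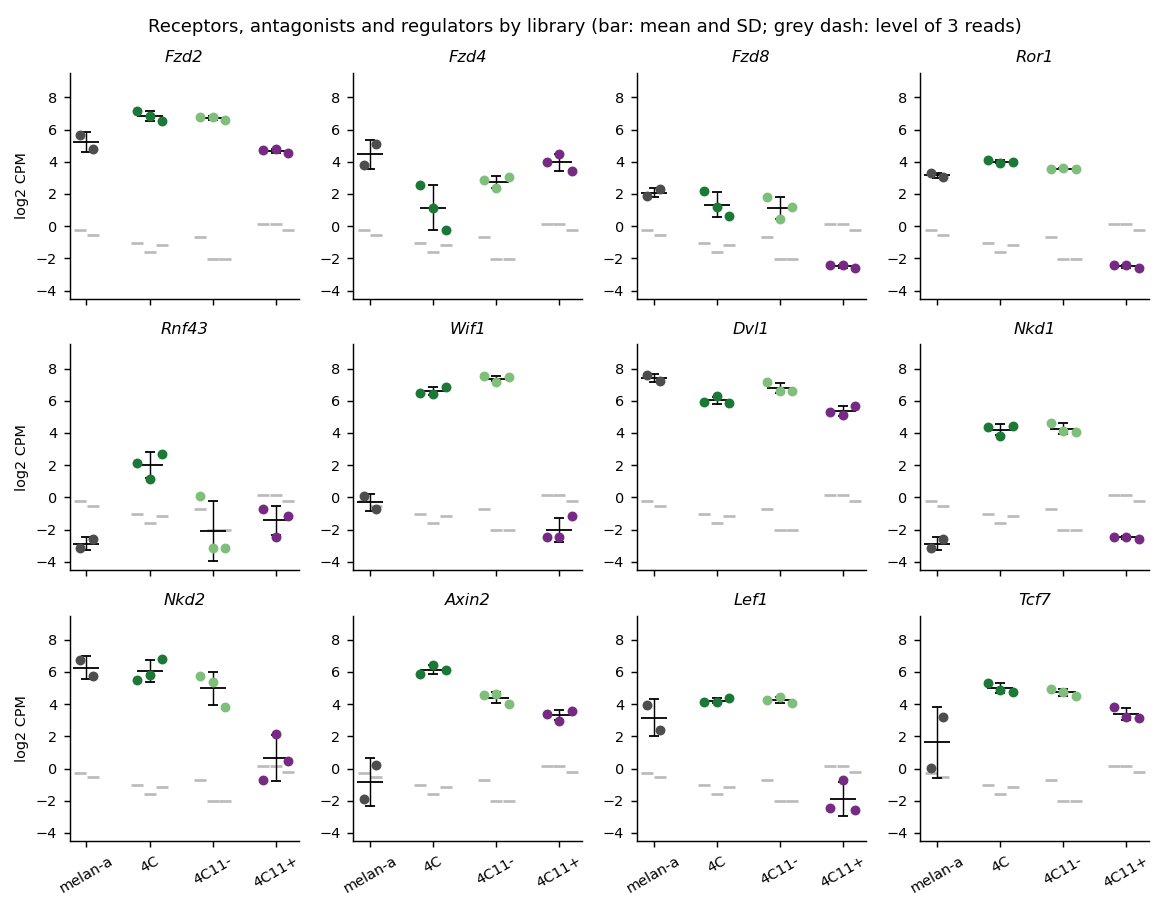
Log2 CPM of 12 receptors, antagonists and intracellular regulators in each library (points), with mean and standard deviation per line (bars) and each library's level of 3 reads (grey dashes). Ror1, Fzd8 and Lef1 are at the floor in 4C11+ but not in melan-a, while Nkd1 and Wif1 are near it in both epithelial lines.

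Inside the cell, Nkd1 and Nkd2 bind Dishevelled and dampen the signal, and they were low in different lines. Nkd1 was at 0 reads in melan-a and 4C11+, at 4.35, 3.80 and 4.45 log2 CPM in 4C and at 4.64, 4.10 and 4.05 in 4C11-. Nkd2 was at 6.76 and 5.78 in melan-a, 5.53, 5.83 and 6.83 in 4C, 5.72, 5.37 and 3.84 in 4C11- and -0.70, 2.17 and 0.48 in 4C11+. Nkd1 thus split the lines by phenotype, whereas Nkd2 was low in 4C11+ alone, with 4C11- replicate 3 (3.84) the lowest library of the others. Nkd2 was also called higher in the mesenchymal-like lines (log2 difference 2.06, SE 0.52, limma adjusted p = 0.0110), with overlapping libraries. The difference of Nkd1 was at least 24.2-fold between 4C and melan-a (limma, adjusted p = 9.33e-07) and at least 18.9-fold between 4C11- and 4C11+ (adjusted p = 3.37e-07). Nkd2 was lower in 4C11+ than in 4C11- by -4.33 (SE 0.70, adjusted p = 0.000671) and lower than in melan-a by -5.62 (SE 0.78, adjusted p = 0.000700).

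Dvl1, the Dishevelled adaptor that relays the signal from Frizzled, was at 7.58 and 7.24 log2 CPM in melan-a, 5.95, 6.29 and 5.85 in 4C, 7.18, 6.63 and 6.58 in 4C11- and 5.28, 5.14 and 5.70 in 4C11+. Melan-a and 4C11- lay above 4C and 4C11+, so Dvl1 did not follow the phenotypes. It was lower in 4C than in melan-a by -1.38 (SE 0.28, limma adjusted p = 0.00562), lower in 4C11+ than in 4C11- by -1.42 (SE 0.25, adjusted p = 0.00124) and lower in 4C11+ than in melan-a by -2.03 (SE 0.28, adjusted p = 0.000652). The protein-coding genes Tas1r3 and Acadvl lie on the other strand of Dvl1 and Dvl2 and have a row. Dvl2 (4.92 to 6.61) was lower and Dvl3 (2.41 to 4.16) higher in 4C11+ than in 4C11-, with the call of Dvl3 lost in 5 of 11 fits (adjusted p up to 0.0935, without 4C11+ replicate 1).

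Of the destruction complex, Axin2 was the member that differed most. Axin2 is a scaffold whose gene is itself a target of the pathway in many tissues. It was at -1.90 and 0.22 log2 CPM in melan-a, 5.89, 6.42 and 6.11 in 4C, 4.55, 4.65 and 4.01 in 4C11- and 3.41, 2.96 and 3.60 in 4C11+. No library of any line overlapped that of another, with 4C highest, then 4C11-, 4C11+ and melan-a. Axin2 was higher in 4C than in melan-a by a log2 difference of 6.98 (SE 0.53, limma adjusted p = 3.23e-06) and higher in 4C11+ than in melan-a by 4.17 (SE 0.53, adjusted p = 0.000362). The melan-a libraries lay apart, so both sizes depend on which of them is used. The difference between 4C and melan-a was 5.92 without melan-a replicate 2 and 8.03 without replicate 3. In the latter fit melan-a keeps 1 read of Axin2, so 8.03 is no measure of size. The steps from 4C to 4C11- (-1.74, SE 0.47, adjusted p = 0.104) and from 4C11- to 4C11+ (-1.08, SE 0.47, adjusted p = 0.106) did not pass the threshold, but passed it without melan-a replicate 2 (adjusted p = 0.0134 and 0.0162) or replicate 3 (adjusted p = 0.0144 and 0.0178). The spread between the melan-a libraries enters every comparison of the common fit.

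The other members of the complex were expressed in all lines: Axin1 from 6.27 to 7.73 log2 CPM, Gsk3a from 4.42 to 5.51, Gsk3b from 5.43 to 7.95 and Apc from 3.96 to 8.10. Of these, Gsk3b alone was called, higher in 4C11+ than in 4C11- (log2 difference 0.85, SE 0.29, limma adjusted p = 0.0436), and the call was lost in 8 of 11 fits (adjusted p up to 0.113, without 4C11- replicate 1, where the difference was 0.53).

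The TCF/LEF factors, which carry beta-catenin to DNA, differed by line. Lef1 was at 3.97 and 2.37 log2 CPM in melan-a, 4.13, 4.11 and 4.41 in 4C, 4.25, 4.44 and 4.06 in 4C11- and -2.44, -0.70 and -2.58 in 4C11+, which is 1 read in all. It was near absent in the metastatic line and alike in 4C and 4C11-. Lef1 was 261-fold lower in 4C11+ than in 4C11- (counting interval 46.9 to 10323, limma adjusted p = 6.91e-06). It was 123-fold lower in 4C11+ than in melan-a (22.1 to 4874, limma adjusted p = 0.000242). The melan-a libraries lay apart, so this size depends on which of them is used, and the interval does not cover that. Between 4C and melan-a Lef1 did not pass (1.05, SE 0.61, limma adjusted p = 0.302).

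Tcf7 was at 0.06 and 3.20 log2 CPM in melan-a, 5.34, 4.90 and 4.76 in 4C, 4.93, 4.73 and 4.51 in 4C11- and 3.79, 3.17 and 3.14 in 4C11+. All mesenchymal-like libraries exceeded all epithelial ones, and the melan-a libraries were far apart. Tcf7 was higher in 4C than in melan-a by 3.36 (SE 0.68, limma adjusted p = 0.00562), a difference that was 1.80 without melan-a replicate 2 and 4.93 without replicate 3. Tcf7l2 was at 2.41 and 3.15 in melan-a, 3.93, 4.35 and 4.06 in 4C, 3.34, 3.96 and 4.12 in 4C11- and 2.09, 2.72 and 2.59 in 4C11+. It was higher in 4C than in melan-a by 1.33 (SE 0.38, adjusted p = 0.0371), a call lost in 6 of 11 fits without 1 library (adjusted p up to 0.219, without melan-a replicate 2), and lower in 4C11+ than in 4C11- by -1.34 (SE 0.34, adjusted p = 0.0117; 0.0590 without 4C11+ replicate 1). Tcf7l1, mostly a repressor, ranged from 1.97 to 3.82 and was called lower in 4C11+ than in 4C11- (log2 difference -1.23, SE 0.38, adjusted p = 0.0274), a call lost in 4 of 11 fits (adjusted p up to 0.0874, without 4C11+ replicate 3).

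**Figure D5:**
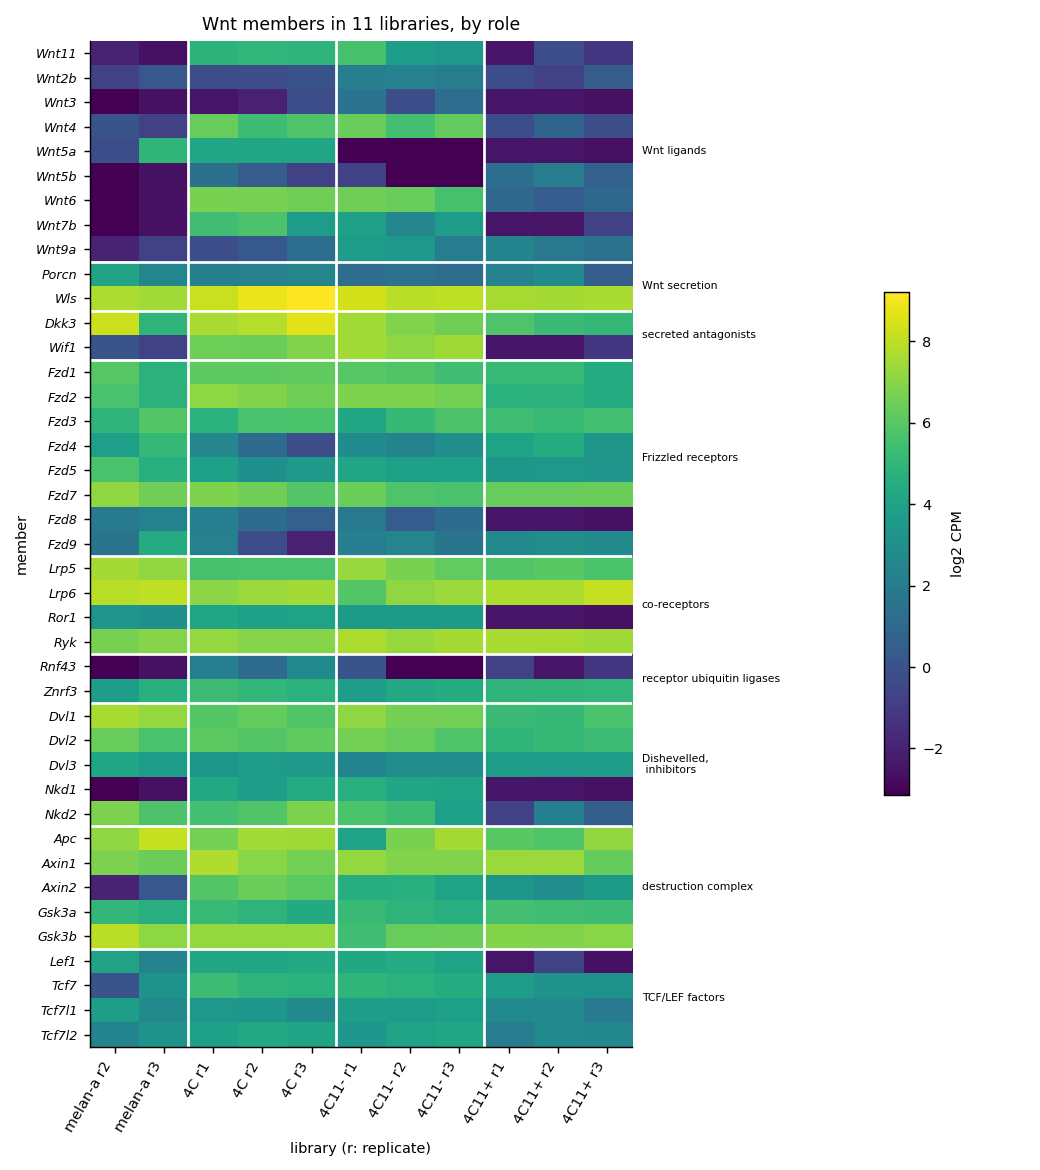
Log2 CPM of the 41 members (rows, ordered by role) in the 11 libraries (columns, with r for replicate). The ligands and Wif1, Nkd1 and Rnf43 hold most of the dark fields, whereas Frizzled receptors, co-receptors and the destruction complex are expressed in nearly all libraries.

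From melan-a to 4C, the first step in the order of the lines, more Wnt members rose than fell. Wnt6, Wnt4, Wnt7b, Wnt11, Wif1, Nkd1, Axin2 and Rnf43 rose, while Fzd4, Fzd5, Lrp5 and Dvl1 fell. In limma, 13 of the 41 members were higher and 4 lower, against 7.64% and 7.55% of all genes. Wnt6, Wnt7b, Nkd1 and Rnf43 were at 0 reads in melan-a and have a row through other lines. They could thus only rise, and these counts describe the list. The members' median log2 difference was 0.77 (0.55 with low values at the level of 3 reads), against -0.06 (-0.08) over all genes. Without melan-a replicate 2 there were again 17 calls, of which 14 were shared. With the libraries of both lines alone, the calls of Fzd4, Fzd5, Tcf7l2 and Wls were lost (adjusted p = 0.0507, 0.0553, 0.0760 and 0.0802). In the same comparison all 11 melanocyte markers were lower and all 4 fibroblast markers higher in 4C, and their part in the Wnt differences was not tested. With the libraries of both lines alone the calls of Tyr, Pmel, Pdgfra and Pdgfrb were lost (adjusted p = 0.0590, 0.0567, 0.0628 and 0.0980). Cdh5 was called higher in 4C (adjusted p = 0.0476), a call lost in 9 of the 11 fits without 1 library (adjusted p up to 0.254, without melan-a replicate 2).

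Of the Wnt members, 3 were called between 4C and 4C11-, the non-tumorigenic and the tumorigenic mesenchymal-like lines. Wnt2b was higher in 4C11-, and Wnt5a and Rnf43 were lower. These were 1 of 41 members called higher and 2 lower, against 1.26% and 0.406% of all genes, and with the members of mean log2 CPM below 1 left out, which include all 3, limma called 0 and 12 members had an unadjusted p below 0.05. Without either melan-a library the count rose to 6, and the added members were Wnt9a, Axin2 and Gsk3b. With the libraries of both lines alone, Wnt2b and Rnf43 were not called (adjusted p = 0.0529 and 0.106). At an unadjusted p below 0.05 the fit of all genes had 8 members higher and 9 lower, against 1179 and 747 of the 14272 genes. The median of the members was -0.31 and that of all genes 0.01, and the median absolute difference was 0.63 against 0.37. Of the melanocyte markers limma called 0 of 11 (1 at an unadjusted p below 0.05) and of the fibroblast markers 0 of 4 (0 at that p), whereas the endothelial marker Cdh5 was higher in 4C11- (log2 difference 5.65, SE 0.97, adjusted p = 0.0135). That call was lost without 4C replicate 2 or 3 or 4C11- replicate 2 (adjusted p up to 0.0745, without the last) and with the libraries of both lines alone (0.0577).

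From 4C11- to 4C11+, between the tumorigenic lines without and with metastasis, more Wnt members fell than rose. Wnt4, Wnt6, Wnt7b, Wnt11, Wif1, Nkd1, Nkd2, Lef1, Ror1 and Fzd8 fell to low levels, and of the ligands Wnt5b rose. Of the 41 members 18 were lower and 4 higher in limma, against 15.4% and 15.6% of all genes. Here too the filter for a row acted on the same lines, so these counts describe the list. The members higher in 4C11+ were Wnt5b, Lrp6, Gsk3b and Dvl3, and without 4C11- replicate 1 Wnt5b alone of them was still called. The median of the members was -1.08 (-0.88 with low values at the level of 3 reads), against 0.12 (0.15) over all genes. Without either melan-a library there were 26 calls, with Fzd1, Tcf7, Axin2 and Dkk3 added. With the libraries of both lines alone, Lrp5, Lrp6, Gsk3b and Dvl3 were not called (adjusted p = 0.0531, 0.0862, 0.0610 and 0.0516). All 11 melanocyte markers were higher and all 4 fibroblast markers lower in 4C11+ (Pdgfrb with the limits given above). The endothelial marker Cdh5 was at least 117-fold lower (adjusted p = 2.39e-05), and Krt10 was lower with a bound of 1.5-fold (adjusted p = 0.000507), a call that ended with low values at the level of 3 reads (adjusted p = 0.280). The part of these markers in the Wnt differences was not tested.

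Both epithelial lines were compared directly as well, at the ends of the order. 4C11+ had more Axin2, Wnt6, Wnt5b and Wnt9a than melan-a and less Ror1, Lef1, Fzd8, Nkd2, Wnt5a and Dvl1. Of the 41 members 5 were higher and 9 lower in limma, against 8.39% and 7.52% of all genes. Without melan-a replicate 2, 8 of these calls were made and those of Wnt5b, Wnt9a, Wif1, Fzd5, Lrp5 and Ryk were lost, while without melan-a replicate 3 there were 18 calls, with Dvl2, Fzd2, Tcf7 and Dkk3 added. The median of the members was -0.26 (-0.23 with low values at the level of 3 reads), against 0.03 (0.07) over all genes. With the libraries of both lines alone, Wnt5a, Ryk and Wif1 were not called (adjusted p = 0.0693, 0.0786 and 0.142). Of the melanocyte markers 2 were higher and 1 lower in 4C11+. Of the fibroblast markers Pdgfra was lower (log2 difference -2.79, SE 0.54, adjusted p = 0.00576; -1.56 without melan-a replicate 2), a call lost with the libraries of both lines alone (0.0532). Krt10 was lower by at least 2.36-fold (adjusted p = 0.000848), a call that ended with low values at the level of 3 reads (0.0785). The 5 comparisons share libraries, so their values are given side by side and do not support each other independently.

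Other genes of the pathway were read from lists. Of 32 annotated target genes of the pathway, 27 have a row. Of these 7 were higher and 5 lower in 4C than in melan-a, 0 higher and 1 lower in 4C11- than in 4C, 4 higher and 13 lower in 4C11+ than in 4C11-, and 0 higher and 6 lower in 4C11+ than in melan-a. For the counts of 0, limma gave 3 and 1 target genes higher at an unadjusted p below 0.05. In the mesenchymal-like lines 11 were higher and 6 lower. In the same order of comparisons these are 25.9% and 18.5%, 0% and 3.70%, 14.8% and 48.1%, 0% and 22.2%, and 40.7% and 22.2% of the list. Of all genes 7.64% and 7.55%, 1.26% and 0.406%, 15.6% and 15.4%, 8.39% and 7.52%, and 14.3% and 15.3% were called.

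Notum, a secreted enzyme that removes the lipid from Wnt ligands, was at 0 reads in melan-a, 3.06, 4.75 and 3.99 log2 CPM in 4C, 2.83, 1.30 and 0.42 in 4C11- and -2.44, -0.70 and -2.58 in 4C11+. Its rise to 4C was at least 20.1-fold (limma, adjusted p = 0.000145). Ccn5, a secreted matricellular protein, was at 2.58 and -0.70 log2 CPM in melan-a and at 0 reads in 4C11+. It was called higher in the mesenchymal-like lines (limma, fitted log2 difference 7.28, SE 0.53, adjusted p = 9.88e-07). With 4C11+ at the floor and the melan-a libraries apart, that value is no measure of size. Bmp4, a growth factor, fell at least 36.4-fold from 4C11- to 4C11+ (adjusted p = 2.69e-07). In the opposite direction, Mitf was at 7.73 and 7.97 in melan-a, 0.87, -0.70 and 0.44 in 4C, -0.70, 1.14 and -0.70 in 4C11- and 6.38, 6.23 and 8.76 in 4C11+. Mitf, counted here both as a target and as a melanocyte marker, was lower in the mesenchymal-like lines by -7.43 (SE 0.53, adjusted p = 7.97e-07). The cell adhesion gene Nrcam was 1371-fold lower in 4C than in melan-a (counting interval 380 to 11325, limma adjusted p = 5.95e-07), and the receptor gene Tnfrsf19 was 257-fold lower (71.2 to 2124, limma adjusted p = 8.37e-06). The melan-a libraries were at 6.21 and 8.09 log2 CPM for Nrcam and at 4.10 and 5.37 for Tnfrsf19. Both sizes thus depend on which melan-a library is used. Met, the receptor of hepatocyte growth factor, was the target gene called between 4C and 4C11- (log2 difference -2.14, SE 0.29, adjusted p = 0.00280). Fn1 (fibronectin) and the transcription factors Klf4 and Jun were lower in 4C11+ than in melan-a by -3.70 (SE 0.51, limma adjusted p = 0.000682), -3.04 (SE 0.47, adjusted p = 0.00146) and -3.01 (SE 0.64, adjusted p = 0.00914). The call of Jun was lost without melan-a replicate 2. Fn1 was at 10.97 and 8.81 log2 CPM in the melan-a libraries, so the size of its difference depends on which is used.

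Beta-catenin itself showed no call. Ctnnb1 was at 10.66 and 9.59 log2 CPM in melan-a, 10.46, 10.36 and 10.55 in 4C, 10.34, 10.49 and 10.13 in 4C11- and 10.03, 9.76 and 10.27 in 4C11+, and its fitted differences lay between -0.30 and 0.32. Of the 43 annotated genes for beta-catenin stability and nuclear partners, 40 have a row, and 6 were higher and 6 lower in the mesenchymal-like lines (15.0% each, against 14.3% and 15.3% of all genes). Between 4C and 4C11- limma called 0, which is close to the share of all genes called (1.26% higher and 0.406% lower). At an unadjusted p below 0.05 there were 4, against 1179 higher and 747 lower among all 14272 genes. From 4C11- to 4C11+ limma called 4 higher and 8 lower (10% and 20%, against 15.6% and 15.4%). Pygo1, a nuclear co-activator, was 74.8-fold higher in 4C11+ than in melan-a (counting interval 25.6 to 363, limma adjusted p = 0.000114), and the co-repressor Tle2 was lower in 4C11+ than in 4C11- by -3.38 (SE 0.68, adjusted p = 0.00295). In the same comparison the co-activator Bcl9l was lower by -2.54 (SE 0.36, adjusted p = 0.000240) and the chromatin remodeler Chd8 by -1.90 (SE 0.22, adjusted p = 6.85e-05), and both were higher in the mesenchymal-like lines (1.72, SE 0.27, adjusted p = 0.000445, and 1.22, SE 0.17, adjusted p = 0.000185). Chd8 was lower in 4C11+ than in melan-a as well (-1.59, SE 0.25, limma adjusted p = 0.00166). Bcl9l was at 7.08 log2 CPM in melan-a replicate 2, within the range of the mesenchymal-like libraries. The co-repressor genes Tle1 and Aes were lower in 4C than in melan-a by -1.91 (SE 0.34, adjusted p = 0.00238) and -1.26 (SE 0.30, adjusted p = 0.0155), and Tle4 was higher by 1.76 (SE 0.31, adjusted p = 0.00247). In 4C11+ compared with melan-a, Tle6 was lower by -1.92 (SE 0.47, adjusted p = 0.0177) and Ctnnbip1, an inhibitor of beta-catenin, by -1.54 (SE 0.29, adjusted p = 0.00530). Without melan-a replicate 2 the calls of Aes and Tle6 were lost (adjusted p = 0.0859 and 0.103). RNA levels say nothing here on the amount or place of the beta-catenin protein.

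Of the 40 annotated cell surface and secreted modulators, 28 have a row, and 9 were higher and 7 lower in the mesenchymal-like lines (32.1% and 25%, against 14.3% and 15.3% of all genes). Notum is counted in this list as well as among the target genes. Between 4C11+ and 4C11- 9 were higher and 8 lower (32.1% and 28.6%, against 15.6% and 15.4%), and between 4C and melan-a 7 were higher and 4 lower (25% and 14.3%, against 7.64% and 7.55%). Trabd2b, a membrane protease that inactivates Wnt ligands, was at 0 reads in melan-a and 4C11+, -1.01, -0.42 and -0.25 log2 CPM in 4C and 3.93, 3.93 and 4.46 in 4C11-. It rose from 4C to 4C11- by a log2 difference of 4.67 (SE 0.48, limma adjusted p = 0.000483). Between 4C and melan-a its low values set no size, and the call (adjusted p = 0.0133) ended in a difference of -0.17 (adjusted p = 0.852) with low values at the level of 3 reads. Lgr6 was at -3.15 and -0.70 in melan-a, 5.22, 5.53 and 6.84 in 4C, 2.41, 3.75 and 0.70 in 4C11- and 0.63, 1.32 and 3.25 in 4C11+, a 271-fold rise from melan-a to 4C (counting interval 75.2 to 2242, adjusted p = 0.000252). Lgr4 was high in all lines, from 5.89 to 7.63, and lower in 4C11+ than in melan-a by -1.16 (SE 0.23, adjusted p = 0.00644; 0.0517 without melan-a replicate 2). Lgr4 and Lgr6 are receptors of the R-spondins. Kremen1, a receptor for Dkk proteins, was lower in 4C than in melan-a by -1.63 (SE 0.34, adjusted p = 0.00670). The glypican Gpc6 was at 0 reads in 4C alone, at least 13.9-fold below 4C11- (adjusted p = 6.22e-05), and Gpc4 was at 0 reads in 4C11+ alone, at least 31.7-fold below 4C11- (adjusted p = 9.83e-07). Cav1, a membrane scaffold protein, was 82.7-fold higher in the mesenchymal-like lines (counting interval 22.9 to 683, adjusted p = 9.63e-06). The syndecan Sdc2 was higher in 4C11+ than in 4C11- by 3.57 (SE 0.48, adjusted p = 0.000171). Igfbp4, which also binds Frizzled receptors, and the syndecan Sdc3 were higher in 4C11+ than in melan-a by 5.75 (SE 0.69, adjusted p = 0.000242) and 5.72 (SE 0.67, adjusted p = 0.000213). The melan-a libraries were apart in both, and the differences were 4.27 and 4.38 without melan-a replicate 3. Without replicate 2 that of Igfbp4 was 7.24, and Sdc3 was then under 3 reads in melan-a, which sets no size.

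In the planar cell polarity list, 29 of 34 annotated genes have a row, and 3 were higher and 5 lower in the mesenchymal-like lines (10.3% and 17.2%, against 14.3% and 15.3% of all genes). Mapk10, a JNK kinase, was at -1.90 and -2.58 log2 CPM in melan-a, 3.45, 3.86 and 4.27 in 4C, 3.54, 4.02 and 3.52 in 4C11- and at 0 reads in 4C11+. It was 316-fold higher in the mesenchymal-like lines (counting interval 56.7 to 12476, limma adjusted p = 5.34e-08). The cadherin Celsr1 was higher in the mesenchymal-like lines by 3.32 (SE 0.30, limma adjusted p = 6.48e-06) and its relative Celsr2 lower by -3.44 (SE 0.35, adjusted p = 1.55e-05). Ptk7, a co-receptor of this branch that also stands in the list of modulators, was 17.9-fold higher in 4C11- than in 4C (counting interval 6.12 to 86.7, adjusted p = 0.0447), a call lost in 8 of 11 fits without 1 library (adjusted p up to 0.192, without 4C replicate 2) and with low values at the level of 3 reads (adjusted p = 0.0515). Ankrd6, which binds Dishevelled, was higher in 4C11- than in 4C by 4.48 (SE 0.79, adjusted p = 0.0163), a call lost in 3 of 11 fits (adjusted p up to 0.0808, without 4C replicate 2), and lower in 4C11+ than in 4C11- by -3.75 (SE 0.79, adjusted p = 0.00406). Prickle1 was higher in 4C11+ than in 4C11- by 1.60 (SE 0.49, adjusted p = 0.0270), a call lost in 3 of 11 fits (adjusted p up to 0.0977, without 4C11+ replicate 3). Between 4C11+ and melan-a limma called 0 genes of this list, against 8.39% of all genes higher and 7.52% lower. At an unadjusted p below 0.05 there were 4, against 2308 higher and 2039 lower among all 14272 genes.

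Of the calcium branch, 20 of 23 annotated genes have a row, with 3 higher and 4 lower in the mesenchymal-like lines (15.0% and 20%, against 14.3% and 15.3% of all genes). Nfatc4, a calcium-regulated transcription factor, was at -3.15 and -0.70 in melan-a, 6.49, 7.10 and 7.03 in 4C, 5.84, 6.07 and 5.69 in 4C11- and -0.70, 0.15 and -1.16 in 4C11+. It was 272-fold higher in the mesenchymal-like lines (counting interval 132 to 676, limma adjusted p = 9.58e-08). Lower in the mesenchymal-like lines were the phospholipase Plcb4 by -4.89 (SE 0.55, adjusted p = 3.79e-05), the G protein subunit Gnao1 by -4.43 (SE 0.37, adjusted p = 2.87e-06) and Nfatc2 by -3.58 (SE 0.43, adjusted p = 6.56e-05). From 4C to 4C11-, Plcb4 rose by 3.94 (SE 0.74, adjusted p = 0.0207) and Gnao1 by 3.57 (SE 0.49, adjusted p = 0.00328), and the Plcb4 call was lost in 4 of 11 fits (adjusted p up to 0.104, without 4C replicate 2) and with the libraries of both lines alone (0.0996).

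Nfatc1 was lower in 4C11+ than in 4C11- by -2.24 (SE 0.59, adjusted p = 0.0133). In 4C11+ compared with melan-a the list had Plcb3 lower by -1.64 (SE 0.38, adjusted p = 0.0144), the kinase Camk2g lower by -0.77 (SE 0.23, adjusted p = 0.0425) and Ppp3r1, a calcineurin subunit, higher by 1.48 (SE 0.36, adjusted p = 0.0180). These calls were lost in 3, 7 and 3 of 11 fits (adjusted p up to 0.0779 without melan-a replicate 2, 0.157 without melan-a replicate 3 and 0.168 without melan-a replicate 2, where the Ppp3r1 difference was 0.98). With the libraries of both lines alone Plcb3 and Camk2g were not called (adjusted p = 0.0616 and 0.0881), nor was Camk2g with the replicate block (0.0622) or without the mean-variance trend (0.0643).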

How the data were processed

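Per the study's methods and labels, stranded total RNA libraries were aligned with STAR to the mouse genome (GRCm38, Ensembl 90) and Rsubread assigned the reads to genes. A filter of 1 CPM or more in 4 or more libraries came before voom. What the authors deposited is in log2 CPM. The 11 libraries share 1 highest value, as a quantile normalization leaves it, a step the methods do not name. Values were used as they are, 24 genes without a symbol included. Members, gene lists and the rule for named genes were chosen with earlier results of these data known. In full are members called with an absolute log2 difference of at least 2 in any comparison and Axin2, Lef1, Wnt5a, Fzd7 and Tcf7l2 (and Ror2, which has no row). From each other list, genes among the 4 largest called differences of a comparison are named, each in 1 or more of the comparisons, and Ctnnb1, Mitf, Lgr4, Kremen1, Trabd2b and Ptk7. Each gene was tested by limma 3.58.1 under R 4.3.3 (line means, mean-variance trend, Benjamini-Hochberg), after a test on simulated data. Python 3.11.15 did the rest. Low values lie on steps taken as single reads, and depth, which is approximate, was read at the step of 40 reads. Positions and exon lengths are from GENCODE (GRCm38), promoters from RefSeq (GRCm38.p6). Alternatives covered a further quantile normalization, low-value rules, the variance model, the libraries fitted, the replicate block and each library left out. Chosen after the data were seen were removal of each library's trend with exon length and leaving out melan-a replicate 2 and 4C11- replicate 1 together.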

Additional observations from a re-analysis of the deposited data

How the results depend on the processing

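Wnt members called were counted again under each alternative. Between 4C11- and 4C the 3 calls became 0 with genes of mean log2 CPM below 1 left out, because the 3 members are then not tested. They became 5 with low values raised to the level of 3 reads and 6 without melan-a replicate 2 and 4C11- replicate 1; the cause was not tested. With 1 library left out at a time there were 14 to 17 calls between 4C and melan-a, 1 to 6 between 4C11- and 4C, 16 to 26 between 4C11+ and 4C11-, 18 to 26 between phenotypes and 8 to 18 between 4C11+ and melan-a, where 8 came without melan-a replicate 2. Where melan-a keeps 1 library, that library is assumed to vary like the other lines.

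For 81 calls of members, 1579 values were computed under the alternatives. Of these 1409 kept direction and call, 169 kept the direction and lost the call, and 1 reversed: Wif1 between 4C11+ and melan-a was 0.26. For 238 calls of the other lists the counts were 4266, 380 and 2 of 4648 values. The reversed ones were Trabd2b between 4C and melan-a (-0.17) and Krt10 between phenotypes (-0.22). All 3 reversed with low values at the level of 3 reads, which by construction shrinks differences near the floor; why the sign turned was not tested.

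In the order melan-a to 4C, 4C to 4C11-, 4C11- to 4C11+, phenotypes and melan-a to 4C11+, the counts were 17, 3, 22, 25 and 14. With the exon-length trend removed they were 18, 3, 21, 26 and 14, and with the replicate block 17, 3, 23, 23 and 13. The block ended the calls of Wnt9a and Dvl2 between phenotypes (adjusted p = 0.0519 and 0.0559) and of Ryk between 4C11+ and melan-a (0.0608). The deviations of same-numbered libraries correlated at -0.23 to 0.39 (median 0.15, 8 of 15 pairs over 0.1) and those of other pairs at -0.42 to 0.34 (median -0.09, 11 of 30), so whether the numbers pair the libraries cannot be told. Depth limits the genes near the floor, whose folds are bounds or wide intervals.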
